A study of Mus musculus with 8 samples.

Results

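Pparg and 9 genes that take up, activate, store or burn fatty acids were followed in regulatory T cells (Tregs), the CD4 T cells that carry the transcription factor Foxp3 and hold immune responses in check. The members were the rows of the deposited count table, 10 of 38406, whose symbol was Pparg, Cd36, Lpl, Fabp5, Acsl4, Dgat1, Dgat2, Plin2, Cpt1a or Hpgds. The rule uses gene names and no measured value, but the names were chosen with earlier results of these data known.

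PPARγ, the protein of Pparg, is a nuclear receptor that binds fatty acids and their derivatives, pairs with a retinoid X receptor on DNA and drives genes of lipid uptake and storage. In mice it is best known for its part in fat cell formation, and among T cells for its high level in the Tregs that live in visceral fat. Of the other members, Cd36, Lpl and Fabp5 bring fatty acids to and into the cell and Acsl4 attaches them to coenzyme A. Dgat1, Dgat2 and Plin2 make and coat triglyceride droplets, Cpt1a passes fatty acids to mitochondria for oxidation, and Hpgds makes prostaglandin D2, some of whose breakdown products bind PPARγ.

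All libraries came from male C57BL/6 mice, and each of the 4 groups held 2 libraries, which the series' design text calls biological duplicates. The groups were muscle Tregs of aged mice (older than 6 months), muscle Tregs of young mice (2 months old), spleen Tregs of aged mice and spleen Tregs of young mice. In all groups the gastrocnemius, quadricep and tibialis anterior had each been given 0.9 µg of cardiotoxin, a toxin of snake venom that kills muscle fibres, 4 days before both tissues were taken, so no group was free of injury. A library was made from 1500 Tregs sorted in 2 rounds, whose sort markers are not named in the labels. The labels do not say how many mice gave a library or whether muscle and spleen libraries share mice. The spread behind every p-value is that between the 2 libraries of a group, pooled over the 4 groups and moderated across genes. How far this spread reflects differences between mice, and how far it is technical, cannot be told from the labels.

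Library totals ranged from 1969982 to 4008622 counts, so the 3 counts that a count of 0 still allows equal 0.736 to 1.499 CPM (counts per 1000000 reads, after scaling) in a library. Such limits, and the counting intervals given for single libraries, cover counting error only. All 8 listed Treg markers had counts in every library, and Foxp3 stood at 15.4 to 41.5 CPM. Young muscle replicate 1 stood apart in markers of other cells. Its 18 macrophage or monocyte markers summed to 725 CPM, against 154 CPM in young muscle replicate 2, 113 and 147 CPM in aged muscle and 67.4 to 141 CPM in spleen. All 18 had counts in aged spleen replicate 1 as well as in young muscle replicate 1. Its 7 fibroblast markers summed to 426 CPM, against 5.59 to 90.1 CPM in the other muscle libraries and 7.46 to 31.3 CPM in spleen. Its 5 platelet markers summed to 96.6 CPM, against 4.84 to 13.9 CPM in all others. The 7 adipocyte markers summed to 14.1 CPM there and 1.02 to 9.30 CPM elsewhere. Fabp4, which macrophages also express, made up 12.5 CPM of the 14.1, and Cidec and Retn were at 0 in that library. Of the 7 markers, Cfd was at 0 in every library, and Adipoq had 0 to 4 counts. Member values and list medians for age in muscle, and for muscle against spleen in young mice, are therefore given also without this library, and the part of other cells in the results was not tested. Of the other lists, muscle markers summed to 37.0 to 128 CPM in muscle and 29.4 to 115 CPM in spleen libraries, and erythroid markers to 7.45 to 41.4 CPM and 22.9 to 161 CPM. Neutrophil markers, mostly Cxcr2, summed to 178 to 424 CPM in muscle and 123 to 258 CPM in spleen, and endothelial markers, mostly Pecam1, to 176 to 229 CPM and 155 to 345 CPM. Dendritic, B cell and NK or CD8 T cell markers summed to 12.5 to 67.2 CPM in muscle and 13.9 to 88.2 CPM in spleen. Ly6g, Gpihbp1 and Myog were at 0 in every library.

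**Figure D1:**
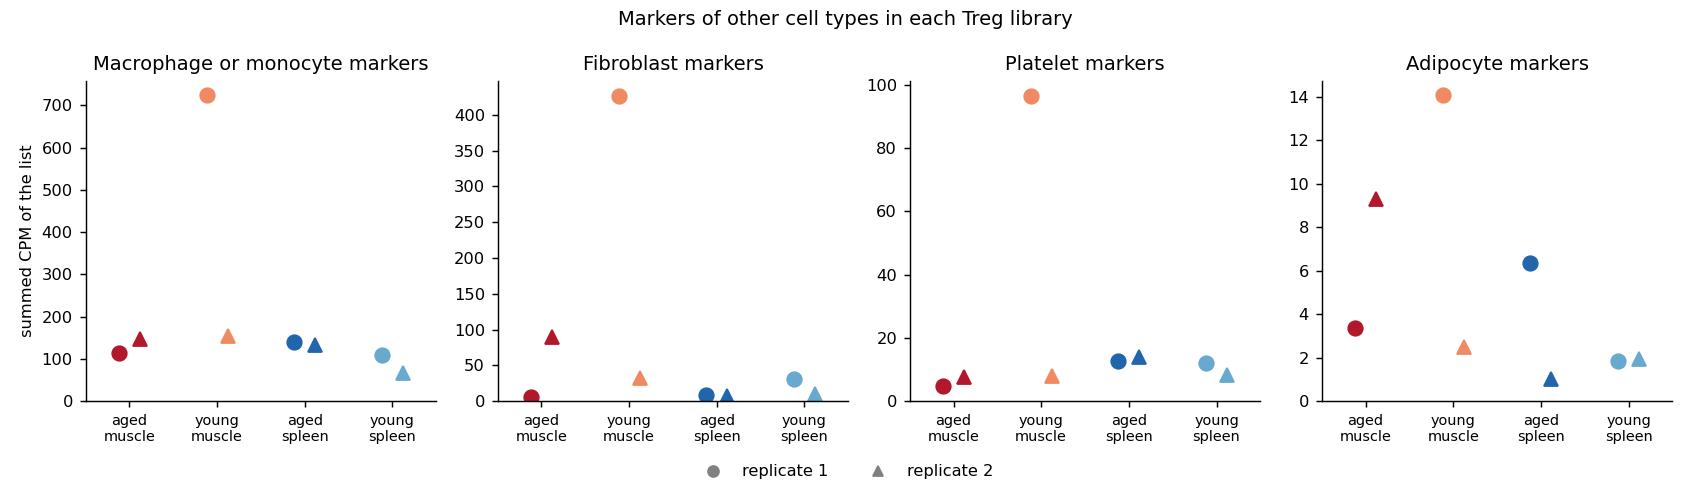
Summed level (CPM) of macrophage or monocyte, fibroblast, platelet and adipocyte markers in each of the 8 Treg libraries, 1 point per library, with circles for replicate 1 and triangles for replicate 2. Young muscle replicate 1 is highest in all 4 panels, at 725, 426, 96.6 and 14.1 CPM. Of its adipocyte sum, 12.5 CPM is Fabp4, which macrophages also express.

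Muscle Tregs held more of several of these transcripts than spleen Tregs at both ages, and Dgat2 alone passed the test for age. In aged mice 4 of 10 members rose in muscle against spleen (Dgat1, Dgat2, Lpl and Cpt1a) and 0 fell, where 9.57% of the 14772 tested genes rose and 9.27% fell. In young mice 6 rose in muscle against spleen (Pparg, Dgat1, Dgat2, Cd36, Fabp5 and Lpl) and 0 fell, where 11.4% of genes rose and 10.9% fell. Without young muscle replicate 1, which leaves 1 library in that group, the calls of Cd36, Fabp5 and Lpl in young mice were lost. Their log2 differences were then 2.03, 1.19 and 1.04. Those of Pparg, Dgat1 and Dgat2, whose calls held, were 4.29, 3.83 and 1.13. A gene is said here to rise or fall where edgeR's quasi-likelihood test gave a Benjamini-Hochberg adjusted p under 0.05 over all tested genes.

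The median log2 difference of the members between muscle and spleen was 1.11 in aged mice, beside 0.03 over all tested genes, and 1.504 in young mice, beside 0.07. With age, Dgat2 rose in muscle, where 1.14% of genes rose and 0.88% fell, and in spleen, where 2.08% rose and 2.17% fell, and 0 members fell in either tissue. Medians of the members for age were -0.20 in muscle and 0.17 in spleen, beside 0.03 and 0.05 over all tested genes. The difference between the age effects, muscle minus spleen, passed for 0 of 10 members by edgeR and 0 by DESeq2, where edgeR called 2.52% of genes in either direction. Of the members, 3 had an unadjusted p under 0.05 in that comparison. The comparisons share libraries with each other, so they do not count as separate evidence.

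All 10 members passed the filter on low counts. Pparg had fewer than 10 counts in both young spleen libraries, and Cd36 in both young spleen libraries and aged spleen replicate 2. Values of both in young spleen are the least precise here. Because the libraries are bulk samples, fewer cells with a transcript and less of it per cell cannot be told apart.

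**Figure D2:**
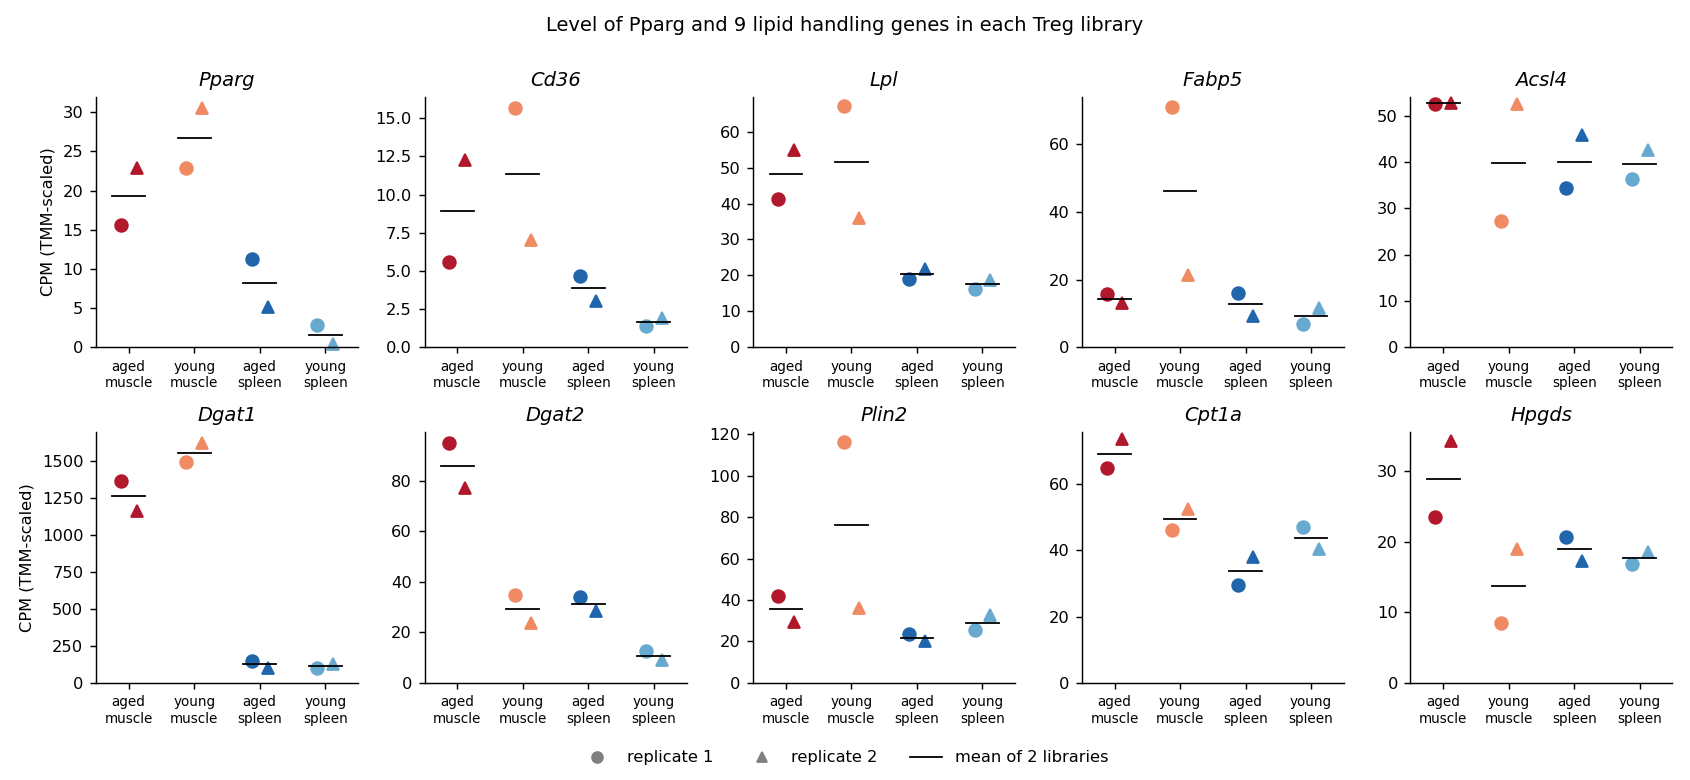
Level of each of the 10 members (TMM-scaled CPM) in aged muscle, young muscle, aged spleen and young spleen Tregs. The 2 libraries per group are drawn as single points. Dgat1 is the highest member in muscle, at 1163 to 1620.0 CPM, and Pparg and Cd36 come closest to the counting limit in young spleen.

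Pparg (ENSMUSG00000000440.12; GRCm38 chromosome 6, 115360951 to 115490399, + strand) had 15.6 and 22.8 CPM in aged muscle and 22.9 and 30.5 CPM in young muscle. It had 11.3 and 5.09 CPM in aged spleen and 2.80 and 0.387 CPM in young spleen. All 4 muscle libraries lay above all 4 spleen libraries, young spleen was lowest, and the aged and young muscle libraries were separated by a narrow gap. The young spleen values rest on 6 and 1 counts, with 95% exact Poisson intervals of 1.03 to 6.10 and 0.00981 to 2.16 CPM, against 46 and 15 counts in aged spleen.

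In young mice Pparg rose in muscle against spleen by 4.09 ± 0.76 on the log2 scale (SE; adjusted p = 0.000944), and by 4.29 without young muscle replicate 1. This call was kept when any 1 library was left out, with values of 3.23 to 5.95. In aged mice the log2 fold change between muscle and spleen was 1.21 ± 0.58 (adjusted p = 0.152). The age effect was 2.41 ± 0.78 in spleen (adjusted p = 0.0836) and -0.47 ± 0.56 in muscle (adjusted p = 0.734; -0.66 without young muscle replicate 1). The spleen value passed in 2 of 14 alternatives. These were no filter on low counts (2.43, adjusted p = 0.0141) and a fit of the 2 spleen groups alone (2.39, adjusted p = 0.0473). It did not pass by DESeq2 (2.42, adjusted p = 0.0572), and ranged from 1.55 to 4.27 with a library left out. The 2 age effects differed by -2.88 ± 0.96, muscle minus spleen, which did not pass (adjusted p = 0.139), though it did with no filter (-2.92).

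Its relatives Ppard and Ppara code for receptors that drive fatty acid oxidation genes in many tissues, and Ppard was ordered differently. Ppard had 39.1 and 45.7 CPM in aged muscle and 74.8 and 59.9 CPM in young muscle, against 72.6 and 77.0 CPM in aged spleen and 91.6 and 107 CPM in young spleen. It was thus highest where Pparg was lowest, and in aged mice it fell in muscle against spleen (-0.82 ± 0.22, adjusted p = 0.0168). Ppara stayed between 0.387 and 13.9 CPM. Its group means were 8.47 CPM in aged muscle, 5.65 in young muscle, 3.75 in aged spleen and 0.661 in young spleen. As for Pparg, young spleen was lowest, at 2 and 1 counts, but muscle and aged spleen libraries overlapped for Ppara. Of the counts of the 3 receptors together, Pparg made up 27.1% and 27.7% in aged muscle and 22.8% and 30.8% in young muscle. Its share was 12.9% and 5.91% in aged spleen and 2.94% and 0.361% in young spleen. Such shares are of reads and not of molecules, since transcripts differ in length.

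Among the 15 tested of 16 listed PPAR partners and co-regulators (members left out here and in the lists below), 1 rose and 6 fell in aged muscle against aged spleen, and 2 rose and 1 fell in young muscle against young spleen. The young counts were 4 and 2 without young muscle replicate 1. Cebpb, a transcription factor that acts with PPARγ in fat cells, rose in muscle by 0.92 ± 0.19 in aged mice and by 2.30 ± 0.20 in young mice (adjusted p = 0.00473 and 1.44e-06). Rxra, the gene of the receptor's DNA-binding partner, rose in young muscle by 1.56 ± 0.31 (adjusted p = 0.00245). Those that fell in aged muscle against aged spleen included the coactivator gene Ncoa1 (-0.75 ± 0.18). With age 1 of the 15 fell in muscle and 0 changed in spleen. This was Cebpb, at -0.91 ± 0.19 (adjusted p = 0.0215), which did not pass without young muscle replicate 1 (-0.60). The list's medians were -0.41 for tissue in aged mice, -0.21 for tissue in young mice, -0.34 for age in muscle and 0.18 for age in spleen. Leaving out young muscle replicate 1 gave -0.42 for tissue in young mice and -0.25 for age in muscle.

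Tested genes whose mean log2 CPM was 4 or more, with predicted and clone-named genes left out, numbered 7755. Of these, the 5 whose level over the 8 libraries was most like that of Pparg were Slc15a3, Glipr1, Myo1d, Sdcbp2 and Ttc39c. Their Pearson r was 0.966, 0.962, 0.959, 0.950 and 0.950. All points share the muscle and spleen difference, so these values describe the shape only. Slc15a3, for example, had 83.4 and 60.05 CPM in aged muscle and 97.0 and 71.9 CPM in young muscle, against 18.4 and 13.6 CPM in aged spleen and 6.54 and 1.55 CPM in young spleen.

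PPARγ and its partner bind repeats of a short half-site, so windows of 250 bases before gene starts in the RefSeq promoter table (GRCm38.p6) were searched on both strands. The table matched 6 members with 8 windows: Pparg, Cd36, Hpgds, Cpt1a, Plin2 and Acsl4. Dgat1, Dgat2, Fabp5 and Lpl were not matched. The full repeat, 2 copies of AGGTCA in the same direction with any 1 base between them, was found in 0 of the 8 windows and in 0.0335% of all 32851 windows. The half-site AGGTCA alone, which the repeat contains, was found in 5 of the 8 windows, of Pparg, Cd36, Cpt1a and Plin2, and in 14.0% of all windows. A match is a run of letters and not a bound site, and its absence says only that these letters are not in the window. The lines below show 60 bases of the windows of Plin2, Cd36 and Cpt1a, well-known PPAR target genes among the members, on the strand of the gene. The Cd36 and Cpt1a stretches lie inside the gene spans given below, so they do not precede the outermost start of those genes. For Cd36, the bases checked just after the start used were not found in its own transcripts. Capitals mark the half-site, which lies on the opposite strand in all of them and so reads TGACCT.
Plin2, chr4:86670245-86670304, - strand: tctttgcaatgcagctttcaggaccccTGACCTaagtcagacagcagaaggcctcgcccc
Cd36, chr5:17836087-17836146, - strand: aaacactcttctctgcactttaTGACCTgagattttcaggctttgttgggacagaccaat
Cpt1a, chr19:3323180-3323239, + strand: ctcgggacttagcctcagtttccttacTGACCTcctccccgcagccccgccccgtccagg

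In muscle against spleen Cpt1a passed in aged mice, Cd36 in young mice, and Plin2 in neither, as described with each gene below. Of 16 tested among 23 further listed PPAR target genes, 1 rose and 1 fell in muscle against spleen in aged mice, 2 rose and 0 fell in young mice, and 0 changed with age in muscle or spleen. Pltp, which moves phospholipids between lipoproteins, rose at both ages (1.38 ± 0.42 in aged and 1.25 ± 0.43 in young mice). Slc25a20, the mitochondrial carnitine carrier, rose in young mice (1.05 ± 0.26), and the mitochondrial carrier gene Ucp2 fell in aged mice (-0.82 ± 0.18). The medians were 0.19 for tissue in aged mice, 0.11 for tissue in young mice, 0.03 for age in muscle and -0.09 for age in spleen. Without young muscle replicate 1 Pltp no longer passed in young mice (1.11), and the medians were 0.08 for tissue in young mice and 0.13 for age in muscle.

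**Figure D3:**
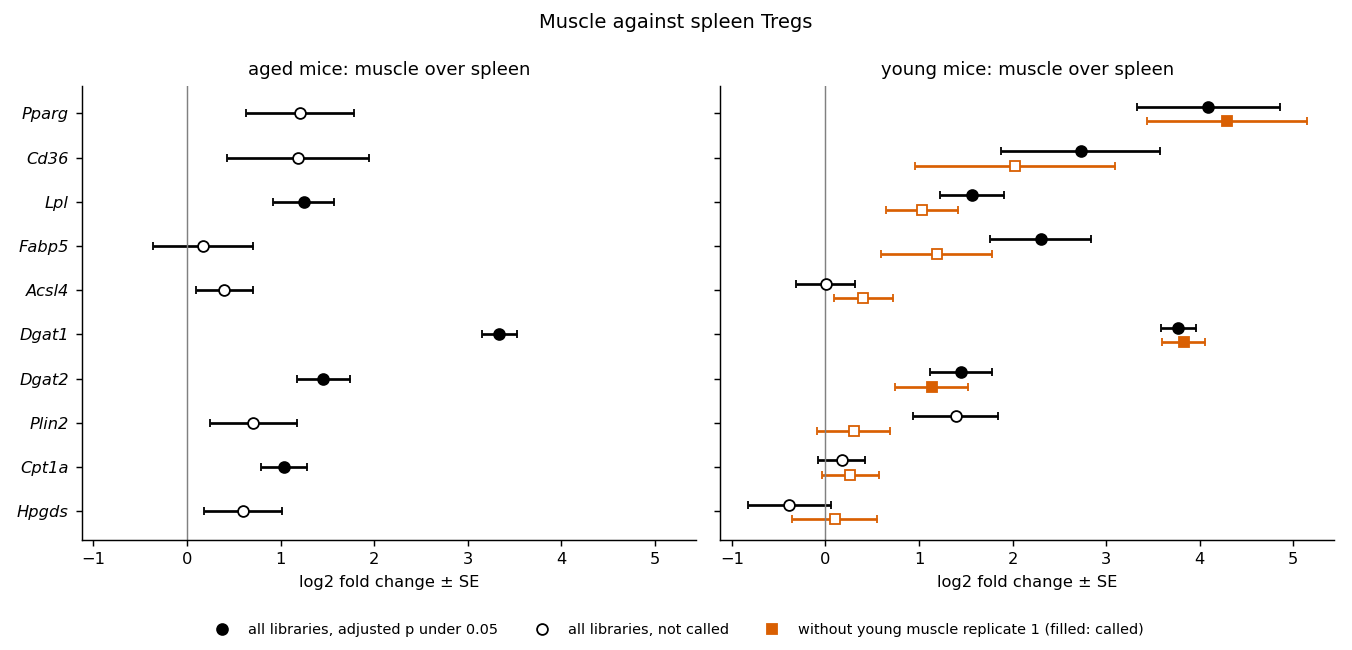
Log2 fold change of muscle over spleen Tregs (± SE) for each member in aged mice (left) and young mice (right), with filled symbols where the edgeR adjusted p was under 0.05, and squares for the fit without young muscle replicate 1. Dgat1 and Dgat2 are filled at both ages, and in young mice Cd36, Fabp5 and Lpl are filled only with all libraries.

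Cd36 (ENSMUSG00000002944.15; chromosome 5, 17781690 to 17888801, - strand), a surface receptor that takes up long-chain fatty acids, had 5.59 and 12.3 CPM in aged muscle and 15.7 and 6.99 CPM in young muscle. In spleen it had 4.66 and 3.05 CPM in aged mice and 1.40 and 1.94 CPM in young mice. The libraries of aged and young muscle overlapped, all muscle libraries lay above all spleen libraries, and aged spleen lay above young spleen. Cd36 rose in young muscle against young spleen by 2.73 ± 0.85 (adjusted p = 0.0304). The call did not hold without young muscle replicate 1 (2.03, adjusted p = 0.160), nor without young spleen replicate 1 (2.53), young spleen replicate 2 (2.98) or aged spleen replicate 1 (2.72). The log2 fold change was 1.19 ± 0.75 between muscle and spleen in aged mice, 1.19 ± 0.87 for age in spleen and -0.36 ± 0.73 for age in muscle, and none of the 3 passed (adjusted p = 0.278, 0.532 and 0.857). The last was 0.34 without young muscle replicate 1.

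Lpl (ENSMUSG00000015568.16; chromosome 8, 68880491 to 68907448, + strand), a secreted enzyme that frees fatty acids from lipoproteins, had 41.3 and 55.0 CPM in aged muscle and 67.2 and 36.0 CPM in young muscle. Its spleen values were 18.9 and 21.7 CPM in aged mice and 16.4 and 18.6 CPM in young mice. Muscle libraries were all above spleen libraries, and the ages overlapped in muscle. Lpl rose in muscle against spleen by 1.25 ± 0.33 in aged mice (adjusted p = 0.0175) and by 1.56 ± 0.34 in young mice (adjusted p = 0.00465). The aged call did not hold without aged muscle replicate 2 (1.03) or either aged spleen library (1.15 and 1.35), and the young call not without young muscle replicate 1 (1.04, adjusted p = 0.0540) or young spleen replicate 1 (1.48). For age Lpl differed by -0.11 ± 0.32 in muscle and 0.21 ± 0.35 in spleen, and neither passed (adjusted p = 0.906 and 0.830). The muscle value was 0.42 without young muscle replicate 1.

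Fabp5 (ENSMUSG00000027533.10; chromosome 3, 10012548 to 10016607, + strand), which carries fatty acids inside the cell, had 15.6 and 13.1 CPM in aged muscle and 70.8 and 21.5 CPM in young muscle. Spleen Tregs had 16.2 and 9.16 CPM in aged mice and 7.01 and 11.6 CPM in young mice. Young muscle replicate 1 alone stood far above every other library, and aged muscle lay within the range of spleen. Fabp5 rose in young muscle against young spleen by 2.30 ± 0.54 (adjusted p = 0.00837). Without young muscle replicate 1 the value was 1.19 (adjusted p = 0.143), and the call also ended without young spleen replicate 1 (1.99).

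For age in muscle Fabp5 differed by -1.69 ± 0.52 (adjusted p = 0.131), and by -0.58 without young muscle replicate 1 (adjusted p = 0.786). It passed with no filter on low counts (-1.71, adjusted p = 0.00613) and without young muscle replicate 2 (-2.29, adjusted p = 0.00397), which leaves replicate 1 as the only young muscle library. The difference of the age effects, muscle minus spleen, was -2.13 ± 0.76 (adjusted p = 0.200) and passed in the same settings (-2.17 and -2.74). The values were 0.17 ± 0.53 between muscle and spleen in aged mice and 0.44 ± 0.55 for age in spleen. Fabp4, the form of fat cells and macrophages, had 31 counts in young muscle replicate 1 and 0 to 3 in every other library. Fabp5 transcripts match those of Gm6166, Gm14328 and Gm13998 over 409, 408 and 175 bases at 98.3%, 97.3% and 96.0% identity, so reads could be split between them. These pseudogene entries held 0 or 1 count in each library.

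Of 11 tested among 21 further uptake and binding genes, 0 rose and 1 fell in muscle against spleen in aged mice. This was Slc27a4, a fatty acid transporter gene (-1.45 ± 0.37, adjusted p = 0.0137). In young mice 1 rose and 0 fell, Cav1, which codes for a coat protein of surface pits (3.08 ± 1.03, adjusted p = 0.0393, which did not pass without young muscle replicate 1 at 3.03). Without that library 0 rose and 1 fell in young mice. For age 1 fell in muscle, again Slc27a4 (-1.63 ± 0.37, adjusted p = 0.0363). It had 8.94 and 7.61 CPM in aged muscle and 27.4 and 24.0 CPM in young muscle. The call was lost without young muscle replicate 1 at nearly the same size (-1.53), as it was without 6 of the other 7 libraries. In spleen 0 changed with age. The medians of the list were 0.43 for tissue in aged mice, 0.97 for tissue in young mice, -0.22 for age in muscle and 0.02 for age in spleen. Both that involve young muscle turned round without replicate 1, to -0.48 for tissue in young mice and 0.26 for age in muscle.

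Acsl4 (ENSMUSG00000031278.12; chromosome X, 142317993 to 142390535, - strand), which activates arachidonic and other long-chain fatty acids, had 52.5 and 52.9 CPM in aged muscle and 27.4 and 52.5 CPM in young muscle. In spleen it had 34.3 and 45.8 CPM in aged mice and 36.5 and 42.6 CPM in young mice. Young muscle replicate 1 was the lowest of all libraries, and the other 7 lay between 34.3 and 52.9 CPM. No comparison passed: the log2 fold change was 0.40 ± 0.30 in aged and 0.00 ± 0.31 in young mice between muscle and spleen, and 0.41 ± 0.31 in muscle and 0.01 ± 0.31 in spleen for age. Leaving out young muscle replicate 1 gave 0.40 for tissue in young mice and 0.0064 for age in muscle. Of the reads of 5 long-chain synthetases (Acsl1, Acsl3, Acsl4, Acsl5, Acsl6), Acsl4 held 35.1% and 29.1% in aged muscle, 20.2% and 39.2% in young muscle, 18.4% and 26.6% in aged spleen and 20.8% and 25.3% in young spleen.

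Among 13 tested of 15 further synthetases and thioesterases, 0 changed between aged muscle and aged spleen, and 2 rose and 1 fell in young muscle against young spleen. Acsbg1, a synthetase gene, rose by 1.53 ± 0.19 and Acot7, which splits acyl-CoA again, by 0.96 ± 0.19 (adjusted p = 4.76e-05 and 0.00261). Acsl5 fell by 0.71 ± 0.21 (adjusted p = 0.0286). For age 0 changed in muscle, and Acsbg1 rose in spleen by 0.96 ± 0.19 (adjusted p = 0.00925), with 113 and 120 CPM in aged spleen against 51.4 and 67.8 CPM in young spleen. Medians were 0.17 and 0.31 for tissue in aged and young mice, and -0.15 and 0.21 for age in muscle and spleen. With young muscle replicate 1 left out, 3 rose and 1 fell in young mice, the tissue median stayed at 0.31 and the median for age in muscle was 0.09.

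Dgat1 and Dgat2 code for unrelated enzymes that both add the last fatty acid to make triglyceride. Dgat1 (ENSMUSG00000022555.12; chromosome 15, 76502015 to 76511953, - strand) had 1367 and 1163 CPM in aged muscle and 1494 and 1620.0 CPM in young muscle. Its spleen values were 148 and 101 CPM in aged mice and 99.5 and 128 CPM in young mice. Every muscle library stood far above every spleen library, and young muscle lay above aged muscle. Dgat1 rose in muscle against spleen by 3.34 ± 0.19 in aged mice (adjusted p = 7.89e-08) and by 3.77 ± 0.19 in young mice (adjusted p = 1.98e-08). Both calls held in every alternative run, including the fit without young muscle replicate 1 (3.83 in young mice). Age did not pass in muscle (-0.30 ± 0.18, adjusted p = 0.453; -0.36 without young muscle replicate 1) or in spleen (0.13 ± 0.19, adjusted p = 0.801).

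Per kilobase of exon, Dgat1 was the most abundant member in every group, at 414 CPM per kb in aged muscle, 510 in young muscle, 40.8 in aged spleen and 37.2 in young spleen. In aged muscle the next was Dgat2 at 27.9 CPM per kb, and the lowest was Cd36 at 2.49. By group means Cd36 was also lowest in aged spleen (1.07) and young spleen (0.465). In young spleen replicate 2 alone, however, Pparg was lower at 0.131, on 1 count, against 0.540 for Cd36. In young muscle, too, the order of the others differed between its libraries. Plin2 came next at a mean of 21.7 CPM per kb and Hpgds last at 2.13, but in replicate 2 alone Pparg and Plin2 came next at 10.3 and 10.2, and Cd36 was last at 1.95, below Hpgds at 2.95. Levels per kilobase assume reads spread evenly along a transcript, which was not tested. The length used joins all annotated exons of a gene, 3567 bases for Fabp5 and 10478 for Lpl, for example. It can exceed the length of the transcript in these cells, so the order of the members depends on the annotation.

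Dgat2 (ENSMUSG00000030747.5; chromosome 7, 99153658 to 99182719, - strand) had 94.97 and 77.0 CPM in aged muscle and 34.6 and 23.5 CPM in young muscle. Spleen Tregs had 34.1 and 28.5 CPM in aged mice and 12.6 and 8.91 CPM in young mice. Aged libraries lay above young ones within each tissue, and muscle above spleen within each age. Levels of young muscle and aged spleen overlapped.

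With age Dgat2 rose in muscle by 1.56 ± 0.29 (adjusted p = 0.0102) and in spleen by 1.55 ± 0.32 (adjusted p = 0.0125). The difference between these effects was 0.01 ± 0.44, a 2-sided test of which gave an adjusted p of 1.000. Without young muscle replicate 1 the muscle value was 1.87 (adjusted p = 0.0127). The muscle call did not hold without aged muscle replicate 1 (1.41, adjusted p = 0.0638) or in a fit of the 2 muscle groups alone (1.56, adjusted p = 0.111), and the spleen call did not hold without any 1 of the 4 spleen libraries (1.31 to 1.81). Between muscle and spleen Dgat2 rose by 1.45 ± 0.28 in aged mice (adjusted p = 0.00290) and by 1.45 ± 0.33 in young mice (adjusted p = 0.00592; 1.13 without young muscle replicate 1). The aged call was lost without aged spleen replicate 2 (1.33), and the young call without young spleen replicate 2 (1.21).

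The share of Dgat2 in the summed Dgat1 and Dgat2 reads was 6.50% and 6.21% in aged muscle (exact 95% binomial intervals 5.74% to 7.31% and 5.36% to 7.14%). In young muscle it was 2.26% and 1.43% (1.81% to 2.79% and 1.05% to 1.90%). Aged spleen had 18.7% and 22.0%, and young spleen 11.2% and 6.52%, with intervals of 16.0% to 21.7%, 17.9% to 26.5%, 7.55% to 15.9% and 4.17% to 9.62%. The share was thus higher in the aged libraries of both tissues and higher in spleen than in muscle of the same age, without overlap. Dgat1 supplied most of the reads of the pair in every library.

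**Figure D4:**
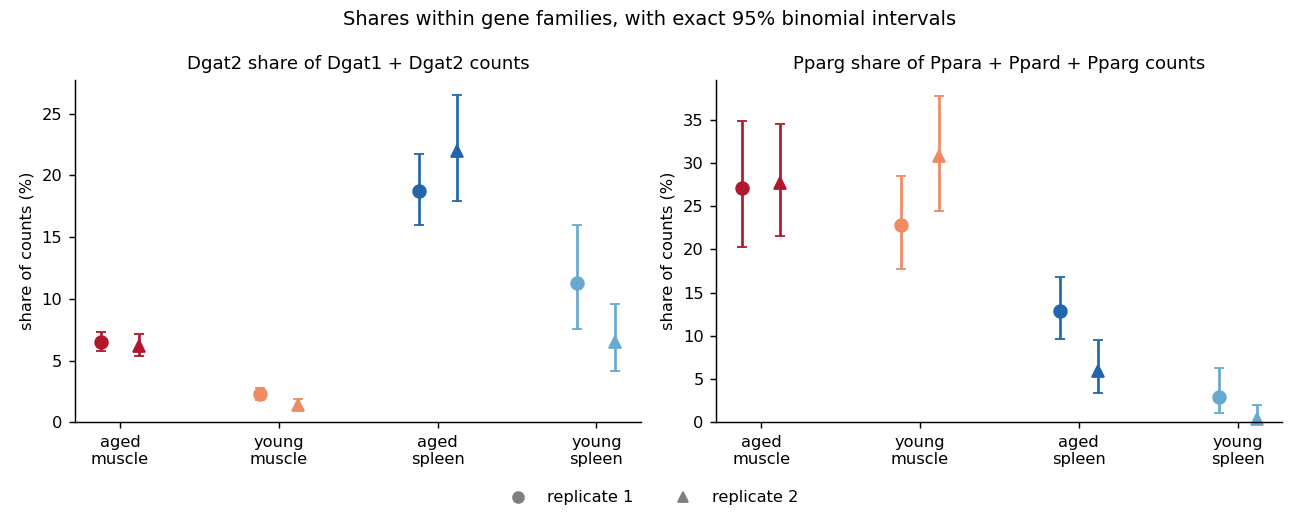
Share (%) of Dgat2 in Dgat1 plus Dgat2 reads (left) and of Pparg in Ppara plus Ppard plus Pparg reads (right). Each library is 1 point with an exact 95% binomial interval, which covers counting error only. The Dgat2 share is 6.50% and 6.21% in aged muscle against 2.26% and 1.43% in young muscle, and the Pparg share is lowest in young spleen.

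Plin2 (ENSMUSG00000028494.12; chromosome 4, 86648386 to 86670060, - strand), whose protein coats lipid droplets, had 42.1 and 29.2 CPM in aged muscle and 116 and 36.0 CPM in young muscle. In spleen it had 23.5 and 20.02 CPM in aged mice and 25.2 and 32.9 CPM in young mice. Young muscle replicate 1 stood far above every other library, and young muscle replicate 2 lay inside the aged muscle range. No comparison passed for Plin2 by edgeR with all libraries, TMM scaling and the filter. The log2 fold change was 0.71 ± 0.47 between muscle and spleen in aged mice and 1.39 ± 0.46 in young mice (adjusted p = 0.305 and 0.0525), the second of which passed by DESeq2 (adjusted p = 0.0167).

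The young value also passed under both other scalings, with no filter, with the replicate block and without young muscle replicate 2, and was 0.30 without young muscle replicate 1. Age gave -1.10 ± 0.45 in muscle (adjusted p = 0.276) and -0.42 ± 0.47 in spleen. The muscle value was -0.01 without young muscle replicate 1, and passed with no filter (-1.12, adjusted p = 0.0137) and without young muscle replicate 2 (-1.70, adjusted p = 0.00244). Of the reads of Plin2 and its relative Plin3, Plin2 held 45.9% and 36.5% in aged muscle and 62.0% and 40.4% in young muscle, against 36.6% and 24.0% in aged spleen and 32.9% and 33.3% in young spleen. Plin1, the droplet coat of fat cells, had 0 to 4 counts in every library. A stretch of 259 bases of Plin2 matches Gm12551 at 96.1%, and that pseudogene held 0 to 7 counts.

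Of 16 tested among 25 further genes of triglyceride synthesis and lipid droplets, 2 rose and 2 fell in muscle against spleen in aged mice, and 4 rose and 4 fell in young mice. Hilpda, a droplet protein known to restrain the lipase of the droplet, rose by 2.39 ± 0.24 in aged and 2.03 ± 0.24 in young mice (adjusted p = 1.09e-05 and 3.45e-05). Its levels were 136 and 124 CPM in aged muscle and 111 and 118 CPM in young muscle, against 30.4 and 18.7 CPM in aged spleen and 25.7 and 30.2 CPM in young spleen. Agpat4, an acyltransferase gene, rose by 1.99 ± 0.24 in aged and 2.59 ± 0.25 in young mice. Its relative Agpat3 fell by 1.01 ± 0.18 in aged mice, and Soat1, which makes cholesterol esters, rose in young mice by 1.11 ± 0.23. With age 0 of the 16 passed by edgeR or by DESeq2 in either tissue, with 2 in muscle and 1 in spleen at an unadjusted p under 0.05. Medians of the list were 0.17 and 0.18 for tissue in aged and young mice, 0.11 for age in muscle and 0.02 for age in spleen. In young mice 4 rose and 2 fell without young muscle replicate 1, with medians of -0.0055 for tissue in young mice and 0.15 for age in muscle.

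All 9 listed genes of lipolysis, the release of stored fatty acids, were tested. In aged mice 1 rose in muscle against spleen, Pnpla3 (1.91 ± 0.48), which codes for a lipase-like droplet protein, and 1 fell, the lipase gene Abhd6 (-1.13 ± 0.31). In young mice 2 rose and 0 fell, Mgll (1.43 ± 0.38) and Pnpla2 (0.50 ± 0.16), lipases of monoglyceride and triglyceride, the second of which did not pass without young muscle replicate 1 (0.51). For age 0 changed in muscle and Lipa, the lysosomal lipase gene, fell in spleen (-0.93 ± 0.23, adjusted p = 0.0324), at 38.7 and 44.8 CPM in aged spleen against 82.3 and 76.3 CPM in young spleen. Medians were -0.23 and -0.02 for tissue in aged and young mice, -0.30 for age in muscle and 0.08 for age in spleen. With young muscle replicate 1 left out they were 0.17 for tissue in young mice and -0.45 for age in muscle.

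Cpt1a (ENSMUSG00000024900.5; chromosome 19, 3322334 to 3385733, + strand), whose enzyme controls the entry of long-chain fatty acids into mitochondria, had 64.8 and 73.6 CPM in aged muscle and 46.3 and 52.5 CPM in young muscle. Its spleen values were 29.7 and 38.0 CPM in aged mice and 47.2 and 40.3 CPM in young mice. Aged muscle was the highest group and aged spleen the lowest, and young muscle and young spleen overlapped. Cpt1a rose in aged muscle against aged spleen by 1.04 ± 0.24 (adjusted p = 0.00936), a call lost without aged spleen replicate 1 (0.86) or aged muscle replicate 2 (0.94). In young mice the value was 0.17 ± 0.25 (0.26 without young muscle replicate 1). Age gave 0.49 ± 0.24 in muscle (0.40 without that library) and -0.37 ± 0.25 in spleen, and neither passed (adjusted p = 0.359 and 0.495). The difference between these age effects was 0.86 ± 0.35 (adjusted p = 0.284). Of Cpt1a, Cpt1b and Cpt1c reads, Cpt1a held 96.7% to 100% in aged muscle, 85.2% to 91.3% in young muscle, 83.6% to 88.3% in aged spleen and 99.02% and 99.05% in young spleen.

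Of 23 tested among 24 further genes of mitochondrial and peroxisomal oxidation, 1 rose and 0 fell in muscle against spleen in aged mice, and 3 rose and 2 fell in young mice. Acacb, whose enzyme makes the malonyl-CoA that inhibits CPT1, rose at both ages, by 2.96 ± 0.65 in aged mice and 3.002 ± 0.67 in young mice (adjusted p = 0.00637 and 0.00495). It had 10.8 and 28.3 CPM in aged muscle and 26.2 and 24.5 CPM in young muscle, against 3.43 and 1.36 CPM in aged spleen and 1.87 and 4.26 CPM in young spleen. Hadhb, a subunit of the enzyme that shortens fatty acids, fell in young muscle (-0.92 ± 0.23). For age 0 of the 23 passed by edgeR or DESeq2 in muscle or spleen, with 2 and 4 genes at an unadjusted p under 0.05. Medians were -0.09 and -0.18 for tissue in aged and young mice, and -0.05 and -0.12 for age in muscle and spleen. With young muscle replicate 1 left out, 3 rose and 3 fell in young mice, and the medians were -0.028 for tissue in young mice and 0.12 for age in muscle.

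Hpgds (ENSMUSG00000029919.5; chromosome 6, 65117293 to 65144908, - strand), the prostaglandin D2 synthase of blood-derived cells, had 23.5 and 34.3 CPM in aged muscle and 8.45 and 18.98 CPM in young muscle. Spleen Tregs had 20.6 and 17.3 CPM in aged mice and 16.8 and 18.6 CPM in young mice. Aged muscle was highest and young muscle replicate 1 lowest, while young muscle replicate 2 lay among the spleen libraries. No comparison passed: the log2 fold change was 1.08 ± 0.43 for age in muscle (adjusted p = 0.241; 0.60 without young muscle replicate 1) and 0.10 ± 0.43 for age in spleen, and 0.60 ± 0.42 in aged and -0.39 ± 0.44 in young mice between muscle and spleen. The last was 0.10 without young muscle replicate 1, and age in muscle passed without young muscle replicate 2 (1.76, adjusted p = 0.0443).

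Hpgds is also a gene of mast cells, so their list is given beside it. The 9 mast cell or basophil markers summed to 85.3 and 98.95 CPM in aged muscle, 34.6 and 28.0 CPM in young muscle and 4.67 to 11.3 CPM in spleen. Most of the aged muscle sum was Kit, at 67.4 and 67.2 CPM, against 4.02 and 10.5 CPM in young muscle. The protease gene Cpa3 had 8 and 27 counts in aged muscle and 0 and 9 in young muscle, and the receptor gene Fcer1a had 6 counts in aged muscle replicate 2 and 0 elsewhere. Hdc, which makes histamine, had 29 and 39 counts in aged muscle and 54 and 26 in young muscle. Mcpt4 and Tpsb2, other protease genes of mast cells, were at 0 in every library. The part of these cells in the Hpgds values was not tested. The other prostaglandin D2 synthase, Ptgds, was at 0 in every library. About 120 bases of Hpgds match stretches of other genes at 95% to 96.7%, which touches a small part of the transcript.

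Among 19 tested of 25 further genes that make, break down or sense prostanoids and leukotrienes, 5 rose and 3 fell in muscle against spleen in aged mice, and 5 rose and 2 fell in young mice. Ptger2, a prostaglandin E2 receptor gene, fell at both ages, with log2 fold changes of -1.996 ± 0.31 in aged mice and -2.18 ± 0.36 in young mice (adjusted p = 0.000562 and 0.000493). It had 22.0 and 17.8 CPM in aged muscle and 9.25 and 6.99 CPM in young muscle, against 69.4 and 89.9 CPM in aged spleen and 46.3 and 28.7 CPM in young spleen. Pla2g4a, a phospholipase gene whose enzyme frees arachidonic acid, rose in aged muscle against aged spleen by 2.79 ± 0.49 (adjusted p = 0.00129). Cbr1, a carbonyl reductase gene, fell in aged muscle (-0.82 ± 0.21). In young mice Ptges, a prostaglandin E2 synthase gene, rose by 3.10 ± 0.82 but did not pass without young muscle replicate 1 (2.55), and Lta4h, a leukotriene enzyme gene, fell by 0.92 ± 0.23. Medians were 0.39 and 0.48 for tissue in aged and young mice, -0.18 for age in muscle and 0.14 for age in spleen. Without young muscle replicate 1, 3 rose and 3 fell in young mice, and the medians were 0.64 for tissue in young mice and 0.08 for age in muscle.

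For age 1 of these 19 genes rose in muscle and 1 rose and 1 fell in spleen. Hpgd, whose enzyme inactivates prostaglandins, had 51 and 38 counts in aged muscle and 1 and 1 in young muscle, a ratio of 39.5 (exact 95% interval 10.6 to 332, counting error only). Its adjusted p was 0.0112, and 0.0743 without young muscle replicate 1. In spleen Pla2g4a fell by 2.92 ± 0.49 (adjusted p = 0.00275), with 5.15 and 2.37 CPM in aged spleen against 33.2 and 26.0 CPM in young spleen. The leukotriene enzyme gene Alox5 had 19 and 29 counts in aged spleen and 0 and 1 in young spleen, a ratio of 32.3 with an interval of 5.52 to 1300.0 (adjusted p = 0.0458).

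**Figure D5:**
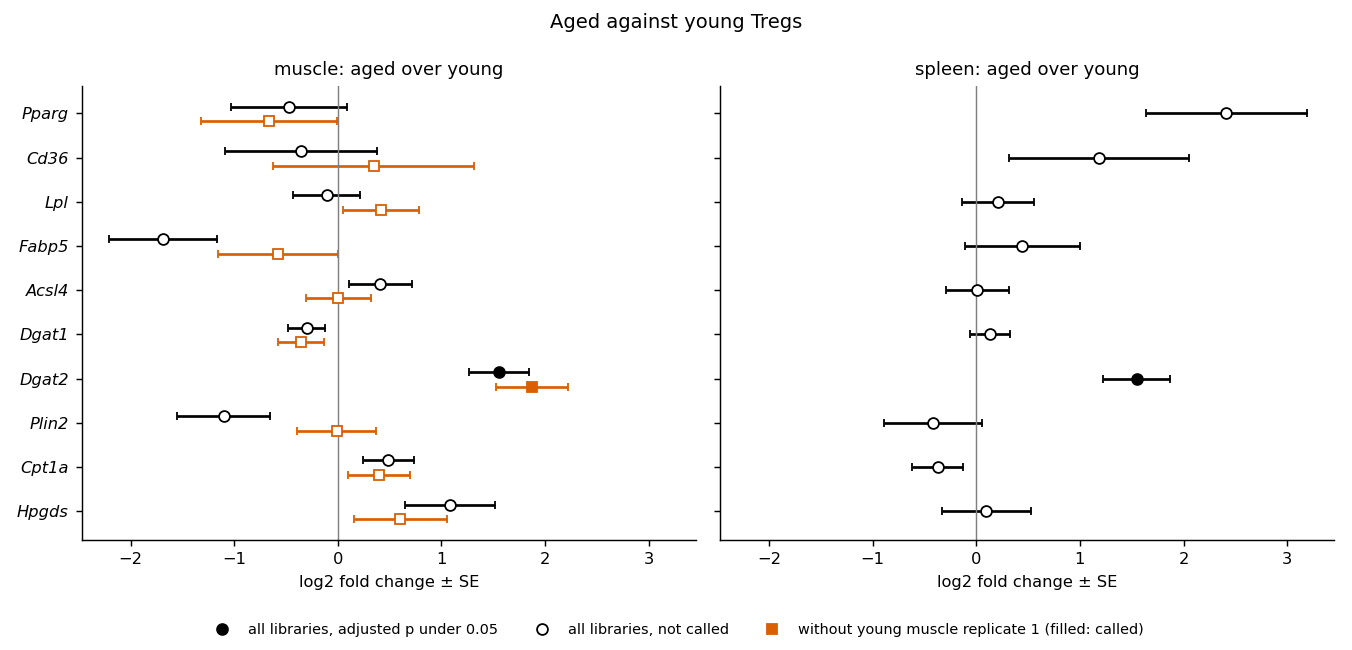
Log2 fold change of aged over young Tregs (± SE) for each member in muscle (left) and spleen (right), with filled symbols where the edgeR adjusted p was under 0.05, and squares for the muscle fit without young muscle replicate 1. Dgat2 is filled in both tissues at 1.56 and 1.55, and the Plin2 and Fabp5 values in muscle move to -0.01 and -0.58 without that library.

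By members, the libraries of aged and young muscle did not overlap for 7 of 10. In aged mice 4 were higher (Dgat2, Hpgds, Cpt1a and Acsl4) and 3 lower (Pparg, Dgat1 and Fabp5). For Acsl4 and Pparg the gap was far inside counting error. The nearest aged and young libraries had 52.51 and 52.45 CPM for Acsl4 and 22.84 and 22.93 CPM for Pparg. Of all tested genes 21.2% were higher and 20.3% lower without overlap. In spleen 4 members were higher in aged mice and 2 lower without overlap, where 28.8% and 24.0% of tested genes were. Between muscle and spleen the libraries did not overlap for 9 members in aged mice and 7 in young mice, all higher in muscle, where 33.0% and 31.7% of tested genes were higher without overlap and 32.4% and 30.0% lower.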

How the data were processed

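The authors deposited raw read counts of every gene in the 8 libraries as a single table. HTSeq, TopHat, TopHat2, SAMtools 0.1.19, Picard and the build mm10 are named in the submitters' processing notes. Which annotation was counted, and on which strand, is not given there. Per the labels' protocols, RNA was amplified by in vitro transcription and PCR, and no molecular identifiers are described, so counts are of reads and not of molecules.

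The counts were analysed in R 4.3.3 with edgeR 4.0.16. Genes passing filterByExpr (14772 of 38406) were scaled by TMM, and all 8 libraries entered 1 robust quasi-likelihood fit with 4 group means (4 residual degrees of freedom, biological coefficient of variation 0.288). Tests were 2-sided with Benjamini-Hochberg adjustment over all tested genes at 0.05, and every adjusted p is from this test unless DESeq2 (1.42.0) is named. SEs come from the fit's information matrix. CPM are counts per 1000000 of the TMM-adjusted library size. CPM per kb divides a group's mean by the joined length of all annotated exons of the gene. The edgeR fit was also run on simulated counts with 200 genes changed in aged muscle and no other difference between groups. That run covered aged against young muscle only, so it does not bear on the other comparisons.

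Alternatives were DESeq2, library-size and DESeq2 scaling, no filter, the 2 groups alone, a replicate block and each library left out. List counts by DESeq2 and without young muscle replicate 1 were added after seeing the data. The members and the 8 pathway lists and 13 marker lists were chosen with earlier results of these data known. Named from each list were up to 3 genes of smallest adjusted p past 0.05 per comparison, and relatives of members, and 1 gene that this rule names is not reported here. Of the listed symbols, 4 were matched through an older name (Adgre1, Gk, Ptgdr2 and Spi1) and 2 beta globins were not matched. Positions are from GENCODE M21, and similar transcripts were found with BLAST+ 2.17.0 (at least 95% identity over 100 bases).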

Additional observations from a re-analysis of the deposited data

Results flagged for a closer look

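No member's age effect differed between muscle and spleen past the threshold, but 4 other genes of the lipid lists did. This was by edgeR's test of the difference itself (age effect in muscle minus age effect in spleen, log2). The lists name 147 genes besides the members, not all of them tested, and 2.52% of all tested genes passed. The 4 are therefore given for their values and not as a trait of the lists. Pla2g4a, the arachidonic acid-releasing phospholipase gene, had a difference of 3.72 ± 0.66 (SE; adjusted p = 0.00582). Its levels were 18.99 and 35.1 CPM in aged muscle and 14.5 and 16.5 CPM in young muscle, against 5.15 and 2.37 CPM in aged spleen and 33.2 and 26.0 CPM in young spleen. Cebpb, a partner of PPARγ in fat cell formation, had a difference of -1.38 ± 0.28 (adjusted p = 0.0125), with 182 and 157 CPM in aged muscle, 378 and 257 CPM in young muscle, 88.0 and 91.6 CPM in aged spleen and 65.4 and 63.5 CPM in young spleen. Acsbg1, an acyl-CoA synthetase gene, had a difference of -1.25 ± 0.26 (adjusted p = 0.0177), with 143 and 140 CPM in aged muscle and 159 and 187 CPM in young muscle, against 113 and 120 CPM in aged spleen and 51.4 and 67.8 CPM in young spleen. Rxrb, a retinoid X receptor gene, had a difference of -1.24 ± 0.30 (adjusted p = 0.0425), with 57.7 and 43.1 CPM in aged muscle, 84.9 and 99.4 CPM in young muscle, 81.9 and 85.2 CPM in aged spleen and 60.3 and 68.2 CPM in young spleen. The differences passed without young muscle replicate 1 as well, at 3.62, -1.08, -1.36 and -1.35 in the order given. The calls of Cebpb and Rxrb were each lost without any 1 of the 4 spleen libraries, and that of Rxrb also without replicate 2 of aged or young muscle. The Pla2g4a call was lost without aged spleen replicate 2 and without young spleen replicate 1, and the Acsbg1 call without either aged spleen library and without young spleen replicate 1.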

How the results depend on the processing

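Of 690 member fold changes recomputed under an alternative, 622 kept their direction and side of the threshold, 22 lost a call, 16 gained one and 30 changed sign. The sign changes were of values that passed in no setting, though not all were near 0 in the main fit. The difference of age effects of Plin2, for example, was -0.68 there. Leaving out each library gave -1.02 to 0.34 for Cd36 and -0.48 to 0.42 for Lpl with age in muscle. With age in spleen it gave -0.17 to 0.38 for Dgat1, -0.034 to 0.86 for Fabp5, -0.035 to 0.22 for Hpgds and -0.21 to 0.21 for Acsl4. The difference of age effects ranged over -0.25 to 0.32 for Dgat2, -1.28 to 0.41 for Plin2, -0.0038 to 0.93 for Acsl4 and -0.69 to 0.21 for Lpl. Muscle over spleen ranged over -1.07 to 0.10 for Hpgds and -0.53 to 0.40 for Acsl4 in young mice, and -0.17 to 0.65 for Fabp5 in aged mice. Under library-size scaling Lpl had 0.029 for age in muscle and Dgat2 -0.038 for the difference of age effects, and with no filter Dgat2 had -0.025 there and Acsl4 -0.029 for tissue in young mice. Acsl4 for age in spleen was -0.0021 by DESeq2, -0.0037 with DESeq2 size factors and -0.0076 from the 2 groups alone.

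Counts of called genes moved more. With age in muscle 298 genes passed, and 497 by DESeq2, 748 with no filter, 50 from the 2 groups alone and 147 to 978 with a library left out. With age in spleen 627 passed, and 1039 with no filter, 1930 from the 2 groups alone and 141 to 1046 with a library left out. The difference of age effects passed for 372 genes, and 670 with no filter and 137 to 646 with a library left out. Muscle against spleen passed for 2783 genes in aged mice (870 to 3922 with a library left out) and 3290 in young mice (1444 to 3545). Members called for age in muscle were 1, and 3 with no filter, 0 from the 2 groups alone and 0 to 4 with a library left out. In spleen there was 1, and 2 with no filter, 2 from the 2 groups alone and 0 to 1 with a library left out. For the difference of age effects there were 0, and 2 with no filter and 0 to 1 with a library left out. For tissue the ranges were 2 to 4 members in aged mice and 3 to 7 in young mice. The cause of these changes was not tested. Leaving out a library leaves its group with 1, which is assumed to vary like the other groups.

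Library-size scaling moved the median log2 change of all genes by 0.12 for age in muscle, 0.17 for age in spleen and 0.11 for tissue in young mice. It raised the share of higher calls for age in spleen to 67.4%, against 49.0% under TMM. Depth limits Pparg and Cd36 in spleen most.

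The replicate block, which takes the replicate number as a pair, called 479 genes for age in muscle. It let Plin2 pass for tissue in young mice (1.23, adjusted p = 0.0352), gave Acsl4 there -0.028, and changed no other member's call. The labels do not say that equal numbers share mice, and the deviations of same-numbered libraries correlated at -0.0652 to 0.256 over the pairs of groups, so the numbers were not taken as pairs.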
